A study of Mus musculus with 10 samples.

Results

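The open chromatin of established mouse embryonic stem cells was compared with that of cells at day 9 of reprogramming. The stem cells did not come from the day 9 cells, so the difference only stands in for the last step to pluripotency. Peaks of the 2 embryonic stem cell (ESC) libraries and the 2 day 9 (DAY9) libraries were merged into 147087 regions wherever they overlapped. A region was called gained when both ESC libraries and neither DAY9 library had a peak in it, and lost in the opposite case. This gave 38630 regions, of which 19071 were gained (13.0% of all regions of the 4 libraries) and 19559 were lost (13.3%). A further 35227 regions (24.0%) had a peak in all 4 libraries and are called shared, and the remaining 73230 (49.8%) had peaks in another combination of libraries. All 10 libraries of the series together hold 208851 regions.

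Accessibility was measured by ATAC-seq, in which a transposase inserts sequencing adapters into open DNA, and each library is represented by the authors' list of peaks on the mouse build mm10. The series holds 2 libraries at each of 5 stages, all of strain C57BL/6 x 129 and of one labelled batch. DAY9 cells came from embryonic fibroblasts (MEF) of a mouse with genotype OKSM Col1a1/M2rtTA ROSA26: a single inducible cassette that encodes Oct4 together with Klf4, Sox2 and Myc lies in the Col1a1 locus and the activator M2rtTA in the Rosa26 locus. They had been kept for 9 days in stem cell medium with 1 µg/ml doxycycline, which switches the cassette on, and 50 µg/ml ascorbic acid, and were sorted for the surface marker SSEA1. The ESC were the line V6.5, unsorted, without the cassette and without doxycycline, grown on irradiated feeder cells with serum and LIF. The MEF before induction and the cells at day 3 (DAY3, unsorted) and day 6 (DAY6, sorted for SSEA1) share the cassette with DAY9 and were used here for the history of each region. Genotype, doxycycline, ascorbic acid and sorting all differ between ESC and DAY9, so their parts in any difference cannot be told apart, and the stem cells are 1 line.

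Reprogramming closes the regulatory elements of the fibroblast and opens those of the pluripotent cell. In mouse embryonic stem cells a network of transcription factors, with Nanog, Esrrb, Tfcp2l1, Klf5 and Prdm14 among its naive members, acts with Oct4 and Sox2 at enhancers that mostly lie away from gene starts. Many germ cell genes have CpG-rich promoters that are silenced by DNA methylation and by repressors of the E2F6, MGA and Polycomb families in somatic cells.

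The DAY9 lists held 77787 and 78308 peaks and the ESC lists 86585 and 88980. Sequencing depth is not given in the lists. The background pileup that each list implies, a measure of relative depth, was 7.33 and 7.37 in DAY9 and 3.48 and 5.46 in ESC, so depth moves with the comparison and its part was not tested. At 8994 regions the DAY9 libraries differed from each other by 1.42 times counting noise, against 8.08 for the ESC libraries over 4975 regions. The DAY9 pair therefore counts as 1 sample, and nothing in the labels says that either pair came from separate cultures. With 2 libraries against 2 the smallest two-sided permutation p-value is 0.333, and the sets are given without one. No listed peak had a −log10 p-value under 5.00, and a region without a peak can hold signal under that limit. The gained count rests on both stem cell libraries: it was 40515 without ESC replicate 1 and 37672 without ESC replicate 2. Just outside the definition, 4686 regions had peaks in both ESC and 1 DAY9 library (median width 577 bp), 39239 in 1 ESC and no DAY9 library (358 bp), 10038 in both DAY9 and 1 ESC library (588 bp) and 14445 in 1 DAY9 and no ESC library (313 bp).

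The labels were checked against marker genes by peaks within 1 kb of either end of the gene. Among 16 general pluripotency genes, 14 and 14 had such a peak in DAY9 and 16 and 16 in ESC. Among 14 naive pluripotency genes the numbers were 10 and 10 in DAY9 and 13 and 11 in ESC. Among 18 mesenchymal genes, which also mark the feeder cells, they were 15 and 14 in DAY9 and 14 and 13 in ESC. Open gene ends do not separate cell types sharply, and the part of feeder cells in the ESC lists was not tested. The stem cell libraries stood apart at 3 genes of chromosome Y. V6.5 is a line of male origin, yet neither ESC library had a peak at the ends of Eif2s3y, Uty and Ddx3y, Y-linked genes used throughout the body, while 7 of the 8 other libraries had peaks at all 3 genes. Their folds over background in DAY9 were 6.0 and 5.85 at Eif2s3y, 4.44 and 6.09 at Uty and 5.76 and 3.11 at Ddx3y. The exception was DAY6 replicate 1, which had none of them. Kdm5d, a further Y-linked gene examined, had a peak only in MEF replicate 1 (4.76) and DAY6 replicate 2 (3.61). Over the whole of chromosome Y the ESC lists held 136 and 235 peaks, against 81 and 92 in DAY9. Without chromosomes X and Y there were 18196 gained and 19010 lost regions.

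Gained regions lay over the promoters of several germ cell genes, and 4 of these promoters are shown with their CpG content beside 2 from the lost set. The 2 were picked by name and do not represent the lost set. The windows run from 250 bases before to 50 bases after the transcription start, are written 5′ to 3′ on the strand of the gene, and are taken from RefSeq on build GRCm38.p6. Capitals mark CpG dinucleotides. Sycp3 (chr10:88459337-88459636, plus strand), Mael (chr1:166238695-166238994, minus strand), Brdt (chr5:107330944-107331243, plus strand) and Ddx4 (chr13:112652261-112652560, minus strand) overlapped a gained region. Cldn6 (chr17:23679115-23679414, plus strand) and Cdkn1a (chr17:29090729-29091028, plus strand) overlapped a lost region.
Sycp3: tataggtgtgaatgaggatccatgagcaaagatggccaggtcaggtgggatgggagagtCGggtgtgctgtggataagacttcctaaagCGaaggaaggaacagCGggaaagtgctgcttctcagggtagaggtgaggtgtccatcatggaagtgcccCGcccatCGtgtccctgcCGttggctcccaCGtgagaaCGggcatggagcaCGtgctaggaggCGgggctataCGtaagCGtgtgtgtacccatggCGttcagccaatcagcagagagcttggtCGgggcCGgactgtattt
Mael: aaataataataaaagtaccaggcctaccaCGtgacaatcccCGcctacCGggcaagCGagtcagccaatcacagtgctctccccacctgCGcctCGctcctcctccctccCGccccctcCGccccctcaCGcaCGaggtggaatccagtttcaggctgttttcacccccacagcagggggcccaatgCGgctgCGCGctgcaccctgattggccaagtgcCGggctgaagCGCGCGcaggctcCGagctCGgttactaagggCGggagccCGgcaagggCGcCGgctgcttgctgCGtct
Brdt: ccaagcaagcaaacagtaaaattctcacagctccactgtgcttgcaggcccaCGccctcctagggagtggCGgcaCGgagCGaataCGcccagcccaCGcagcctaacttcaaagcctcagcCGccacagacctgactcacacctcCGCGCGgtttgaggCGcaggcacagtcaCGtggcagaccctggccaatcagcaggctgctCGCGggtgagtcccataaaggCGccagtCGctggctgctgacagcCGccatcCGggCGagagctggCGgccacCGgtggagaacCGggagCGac
Ddx4: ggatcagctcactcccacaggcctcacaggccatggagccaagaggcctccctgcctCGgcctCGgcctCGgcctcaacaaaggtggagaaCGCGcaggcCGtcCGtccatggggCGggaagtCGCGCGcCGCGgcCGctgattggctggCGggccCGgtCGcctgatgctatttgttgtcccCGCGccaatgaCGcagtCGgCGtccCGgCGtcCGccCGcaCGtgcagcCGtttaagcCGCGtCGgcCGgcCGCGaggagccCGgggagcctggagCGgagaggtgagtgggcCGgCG
Cldn6: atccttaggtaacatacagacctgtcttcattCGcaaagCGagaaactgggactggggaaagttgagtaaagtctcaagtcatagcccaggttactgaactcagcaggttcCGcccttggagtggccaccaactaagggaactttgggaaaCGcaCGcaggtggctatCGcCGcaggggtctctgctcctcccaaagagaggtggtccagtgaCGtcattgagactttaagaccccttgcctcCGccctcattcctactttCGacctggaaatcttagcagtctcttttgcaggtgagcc
Cdkn1a: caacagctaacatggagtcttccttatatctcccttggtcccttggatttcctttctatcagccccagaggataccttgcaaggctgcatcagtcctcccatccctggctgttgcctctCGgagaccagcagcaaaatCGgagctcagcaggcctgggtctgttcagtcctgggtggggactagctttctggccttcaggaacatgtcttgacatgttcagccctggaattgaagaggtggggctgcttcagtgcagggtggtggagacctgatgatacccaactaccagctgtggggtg

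Among 15 germ cell genes examined, 9 had a gained region at a gene end and none had a lost one. Over all 21887 protein-coding genes, 4.15% had a gained and 5.01% a lost region within 1 kb of a gene end. The 9 genes were Ddx4, an RNA helicase of germ cells, Sycp1 and Sycp3 of the synaptonemal complex, Hormad1 of the meiotic chromosome axis, Mael, Asz1 and Mov10l1 of the piRNA pathway, the testis bromodomain protein Brdt, and the testis nucleotide carrier Slc25a31. In all 9 the gained region lay at the transcription start. None of the 9 starts had a peak in any of the 8 MEF, DAY3, DAY6 or DAY9 libraries. The absence of a DAY9 peak from a gained region is set by the definition. Of all gained regions, 86.6% had no peak in MEF, DAY3 or DAY6.

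The authors' fold at the start of Brdt was 12.6 and 6.35 in the 2 ESC libraries, the widest spread between the pair among these genes. The values were 9.64 and 6.19 at Ddx4, 8.92 and 6.5 at Mael, and 8.64 and 5.35 at Sycp3. They were 6.47 and 3.56 at Slc25a31, 4.91 and 4.18 at Hormad1, and 4.46 and 3.41 at Mov10l1. At Sycp1 (4.02 and 4.8) and Asz1 (4.02 and 7.74) the second ESC library was the higher one. A peak in both ESC libraries is part of the definition of a gained region.

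The other 6 germ cell genes did not share this course. Dazl, an RNA-binding protein of germ cells, had a peak at its start in all 10 libraries, with folds of 16.0 and 9.74 in MEF and 16.1 and 13.3 in ESC. Stra8, which acts at entry into meiosis, had one from DAY6 on, and Sycp2 had one from DAY9 on (3.96 and 2.99) that was higher in ESC (8.7 and 6.5). Taf7l had a peak in ESC replicate 2 alone (4.8), and Tex101 and Tdrd1 had none in any library. Across the 15 starts, 1 was open in each MEF and DAY3 library, 2 in each DAY6 library, 3 in each DAY9 library, and 12 and 13 in the ESC libraries.

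**Figure D1:**
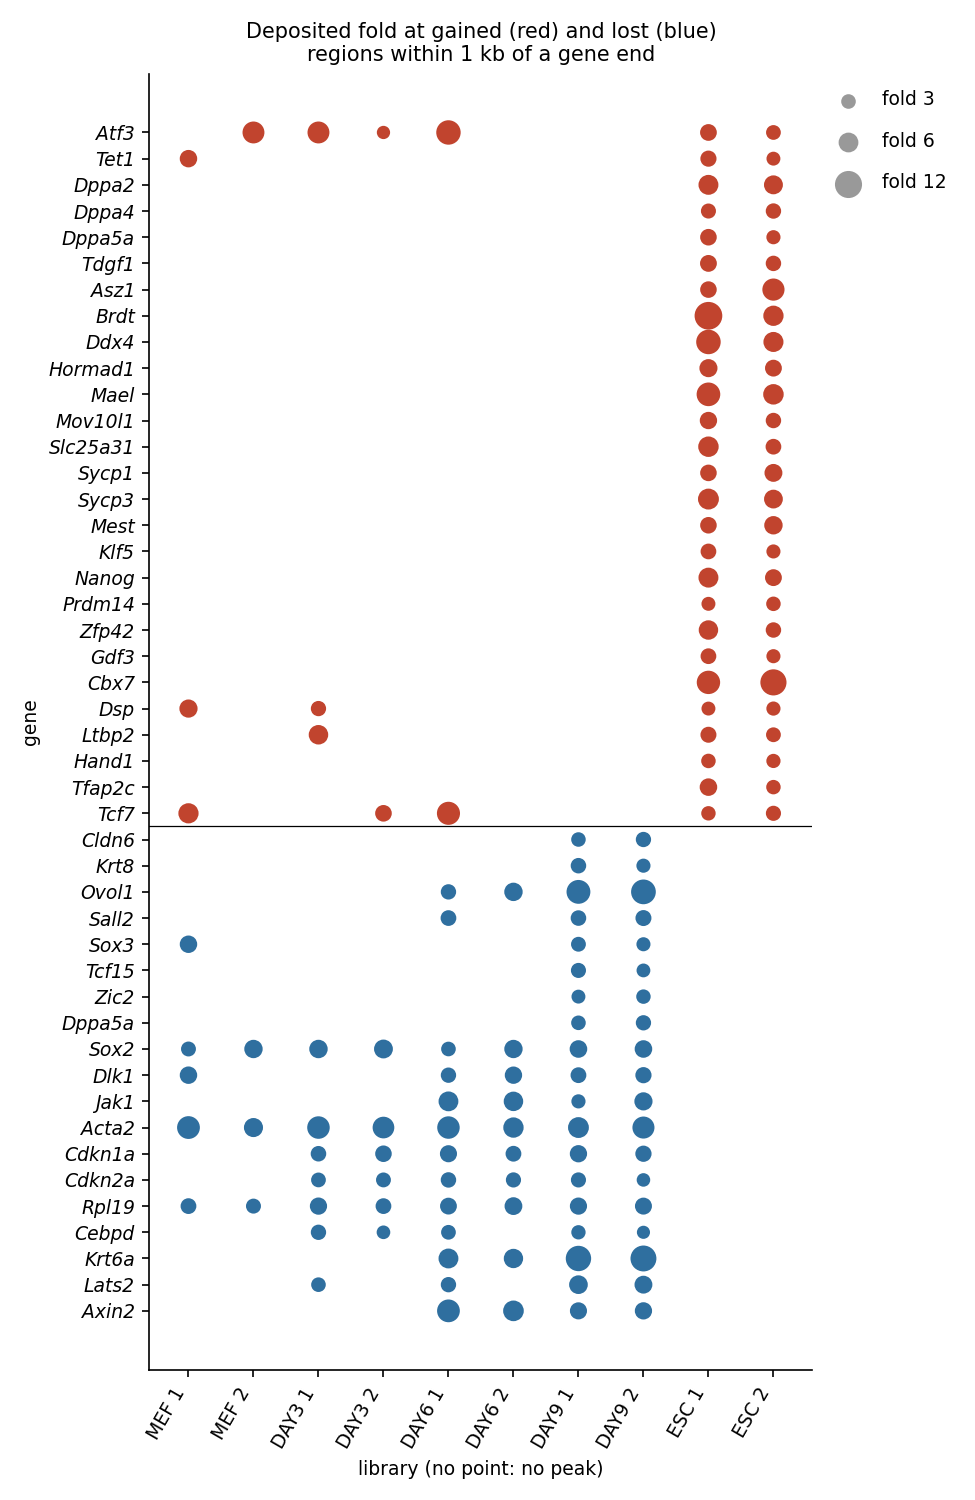
The authors' fold over background (point area) at gained regions (red, 27 genes) and lost regions (blue, 19 genes) within 1 kb of an end of a gene from the lists examined, in each of the 10 libraries (x axis); a missing point is a library without a peak, and where a gene has several such regions the one with the highest rank is drawn. Of the gained regions drawn, 22 had no peak in MEF, DAY3 or DAY6, and of the lost ones 14 had one.

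The germ cell starts were rich in CpG. The ratio of observed to expected CpG was 0.666 to 0.978 in the promoters of the 9 genes, with a median of 0.759. The median was 0.38 over the 563 promoters that overlapped a gained region, 0.279 over the 479 that overlapped a lost region, 0.776 over the 13970 at shared regions and 0.384 over all 32851. The promoters of gained germ cell genes thus stood near the shared promoters by this ratio, and most gained promoters did not. The E-box CACGTG, the palindrome bound by MAX and its partners, occurred in the promoters of 8 of the 9 genes, and the letters TTCCCGC of the E2F site, searched on both strands, in those of 4. Among all promoters 7.15% held the E-box and 4.6% the E2F letters. Among gained promoters the shares were 6.22% and 4.44%, and among shared promoters 10.3% and 8.76%. Of the germ cell genes without a gained end, Taf7l and Tdrd1 also held the E-box, and Dazl, Sycp2, Stra8 and Tex101 did not. These 2 motifs were chosen after the gene list was known, and a match of letters does not show binding.

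The naive pluripotency genes had more gained than lost regions around them. Within the gene or 20 kb of it, the 14 genes held 36 gained and 13 lost regions, and 9 of 14 had at least 1 gained and 5 at least 1 lost region. Over all protein-coding genes 39.2% had a gained and 45.5% a lost region at that distance. Gained regions lay within 1 kb of an end of Nanog, Zfp42, Klf5 and Prdm14, and no lost region did.

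Esrrb, an orphan nuclear receptor that holds the naive state together with Nanog, had 8 gained, 7 shared and no lost regions. Of the 8 gained regions, 7 had no peak in any of the 8 other libraries. Over all gained regions 86.6% had no peak in MEF, DAY3 or DAY6. The eighth region at Esrrb, chr12:86395291-86395832, had a peak in MEF replicate 1 (3.74). That region was also the strongest in ESC replicate 1, with a fold of 13.2, against 4.18 in ESC replicate 2. Of the 7 shared regions of the gene, 6 had a peak in at least 1 DAY6 library. Over all shared regions, 85.8% had a peak in DAY6 replicate 1 and 82.4% in DAY6 replicate 2. Esrrb thus had a set of elements open in both DAY9 and ESC, and a further set open in ESC and not in DAY9.

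Nanog, the homeodomain factor of the naive network, had a shared peak over its start (2.25 and 2.42 in DAY9, 5.32 and 3.14 in ESC), which no earlier library had. The gained region just past its other end, chr6:122715423-122716379, had a fold of 6.11 and 4.18. Zfp42, which encodes the stem cell marker Rex1, had 5 gained and no lost regions, while the peak over its start was already strong at DAY9 (10.9 and 13.0, against 14.6 and 12.7 in ESC). A shared region 13.5 kb from Zfp42 had a fold of 3.36 and 2.75 in DAY9 and 15.2 and 12.1 in ESC, a difference that a count of gained regions leaves out. Tfcp2l1, a further naive factor, had 5 gained and 1 lost region around a start that had a peak in all 10 libraries. Klf5, a Krüppel-like factor, had 3 gained and 2 lost regions, and Prdm14, which keeps DNA methylation low, had 3 gained and 1 lost.

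Nr5a2, a nuclear receptor that activates the Oct4 gene, went both ways, with 6 gained and 8 lost regions. The strongest lost one, chr1:136905850-136906661, had a fold of 6.45 and 6.89 in DAY9 and no peak in the other 8 libraries. Klf2, Tbx3, Tcl1 and Gbx2 had neither kind of region within 20 kb. The peak over one end of Tbx3, a T-box factor, had a fold of 10.8 and 7.32 in MEF, 11.1 and 10.9 in DAY9 and 12.3 and 10.2 in ESC.

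The general pluripotency genes held 29 gained and 7 lost regions, and most of the gains came from few genes. The 29 were 25 distinct regions. Dppa4 had 7 and Dppa2 6, some of them counted for both because the genes are neighbours, Tdgf1 and Fbxo15 had 4 each and Dppa5a had 3. Sall4, Lin28a, Fgf4 and Mycn had neither kind, and all 4 had shared regions, between 2 and 6 each. Tdgf1, the Nodal co-receptor Cripto, had a shared peak over its start that was already at 9.46 and 8.53 in DAY9, against 4.9 and 5.18 in ESC. Utf1, a chromatin protein of stem cells, had 2 lost regions, of which chr7:139937032-139937634 had 6.6 and 6.88 in DAY9 and no peak elsewhere. Counted for each gene, so that a region near neighbours counts again, the naive and general genes together held 65 gained and 20 lost regions. These counts were 112 and 32 without ESC replicate 1, 119 and 25 without ESC replicate 2, and 67 and 32 without DAY9 replicate 1. The lists of genes were drawn up with earlier results of these libraries known, so their counts are descriptions.

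Dppa2 and Dppa4, small nuclear proteins that bind together to CpG-rich promoters of developmental and germ cell genes, lay in the run with the most gained regions. A run is a chain of neighbours of one set, and the largest gap inside a gained run was 12499 bp. The run held 8 gained regions over 42.0 kb, chr16:48279165-48321163, with no shared or lost region inside it. Over all gained regions 13.4% had an earlier peak, and 1 of the 8, chr16:48303130-48304402, had one, at 4.76 and 3.0 in MEF. Its fold in ESC was 5.38 and 10.0, and the region with the best lower rank of the run, 0.828 kb from Dppa2, had 6.1 and 5.44. Neither gene had a region within 20 kb with a peak in all 4 libraries, and 4 regions with peaks in another combination of the 4 lay inside the run.

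Of the 9 Polycomb genes, 8 had a gene-end peak in each DAY9 library and 9 in each ESC library, and gained regions lay around them. The 9 genes had 23 gained and 10 lost regions, and 8 of the 9 had at least 1 gained region, against 39.2% of all genes. Their median length was 41.0 kb, against 17.2 kb over all genes. Cbx7, the chromobox subunit of Polycomb complex 1 in stem cells, was the exception at its most upstream start: the region chr15:79970762-79971472 had a fold of 8.7 and 11.1 in ESC and no peak in any other library. Eed, a core subunit of Polycomb complex 2, had a peak over its start in all 10 libraries and 3 gained regions, of which one inside the gene (chr7:89975495-89976032) had 12.2 and 8.44. Ezh2, the methyltransferase of that complex, had 2 gained regions outside the gene, the stronger with 11.8 and 7.28, and Mtf2, an accessory subunit, had 5. The 9 genes of DNA methylation had 17 gained and 13 lost regions. Tet1, a dioxygenase that oxidises methylcytosine, had 4 gained and none lost, whereas Tet3 had 4 lost and none gained.

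Epithelial genes had more lost than gained regions. Reprogramming fibroblasts pass through a mesenchymal-to-epithelial transition, and embryonic stem cells are themselves epithelial. The 16 genes of the list held 13 gained and 30 lost regions, and 12 of 16 had a lost region, against 45.5% of all genes. Of the 16, 15 and 16 had a gene-end peak in DAY9 and 14 and 14 in ESC, and 13 had a shared region at a gene end. Cdh1, E-cadherin, had a shared peak over its start (11.6 and 10.6 in DAY9, 8.09 and 6.53 in ESC) and lost a region inside the gene, chr8:106644514-106645522, that had stood at 9.5 and 7.35 in DAY6 and 9.04 and 9.15 in DAY9. Grhl2, a transcription factor of epithelia, had 5 lost and 1 gained region. The strongest of the lost ones, chr15:37371811-37372504, had a fold of 7.14 and 8.45 in DAY3, 11.2 and 9.92 in DAY6 and 12.8 and 12.9 in DAY9.

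At gene ends the epithelial losses were at Ovol1, Cldn6 and Krt8. Ovol1, a zinc finger factor of epithelial differentiation, had 3.37 and 5.11 in DAY6 and 9.08 and 9.84 in DAY9. Cldn6, a tight junction claudin, had 2.97 and 3.34 in DAY9 alone, and the lost region near Krt8, a simple epithelial keratin, had 3.45 and 2.78 in DAY9 alone and lies in the neighbour Krt78, at the end of Krt8 opposite to its start. The 12 genes of stratified epithelia, a lineage outside the pluripotent one, held 3 gained and 16 lost regions. A region near 2 neighbouring genes counts for each, and the 16 were 14 distinct regions, since Krt5 and Krt6a share their 2. The lost region beside Krt6a, a keratin of stratified epithelium, had 6.06 and 5.71 in DAY6 and 10.4 and 10.9 in DAY9, and a second lost region 1.95 kb from Krt5 had 7.42 and 7.73 in DAY9. Trp63, the p63 factor of basal epithelium, had 4 lost regions and 1 gained.

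The Runx and C/EBP factors, regulators of mesenchymal and blood lineages, also had mostly losses: 5 gained and 20 lost regions, with at least 1 lost region at all 6 genes, against 45.5% of all genes. Runx1, of 224.6 kb, had 10 lost regions and 1 gained, and Runx2, of 318.8 kb, had 5 lost, so these 2 long genes held most of them. Of the 10 at Runx1, 9 had an earlier peak, against 76.3% of all lost regions. The region with the highest rank, chr16:92757440-92758093, had 6.74 and 10.8 in DAY6 and 11.8 and 9.69 in DAY9. The gained one, chr16:92620993-92621587, had been open in MEF (6.78 and 4.96) and in DAY3 replicate 2 (3.51), and had 6.47 and 2.94 in ESC. Cebpd had a lost region at a gene end that was weak throughout (2.87 and 2.34 in DAY9).

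Genes of the formative and primed states, which follow the naive state in the embryo, had 12 gained and 19 lost regions, and 11 of the 12 had a lost region, against 45.5% of all genes. The 19 were 18 distinct regions. Lost regions lay within 1 kb of an end of Sox3, Zic2, Tcf15 and Sall2, all with folds under 4 in DAY9. Otx2, a homeodomain factor of the primed state, was the gene with no lost region, and had 1 gained and 3 shared. Lef1, a partner of β-catenin, had 7 gained and 3 lost. In the signalling lists, the genes of the FGF pathway had 6 gained and 15 lost regions, those of the TGFβ pathway 12 and 20, those of the YAP and TEAD pathway 12 and 22, the LIF pathway 4 and 9, and the Nodal pathway 6 and 12. The Wnt and TCF genes had 22 and 19, with a gained region at 7 of the 8 and a lost one at 6, against 39.2% and 45.5% of all genes. Their median length was 75.5 kb, against 17.2 kb over all genes. Over all protein-coding genes the totals were 15016 gained and 19733 lost, so lost regions prevailed near genes in general.

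Cdkn1a, Cdkn2a, Acta2, Axin2 and Jak1 also had a lost region at a gene end. Cdkn1a, the cell cycle inhibitor p21, had at its upstream end a peak in DAY3 (3.47 and 4.01), DAY6 (4.32 and 3.6) and DAY9 (4.43 and 3.85) and none in MEF or ESC, while another annotated start of the gene had a peak in all 10 libraries. Cdkn2a, which encodes p16 and p19, had at one end a peak of 2.52 to 3.42 in the same 6 libraries. Acta2, smooth muscle actin, was the 1 of 18 mesenchymal genes with a lost end (5.56%, against 5.01% of all genes), and its start was open in all 8 libraries before ESC, between 5.54 and 8.23. Axin2, a feedback inhibitor of Wnt signalling, had 8.2 and 6.61 in DAY6 and 4.32 and 4.42 in DAY9. Jak1, the kinase of the LIF receptor, had 6.02 and 5.8 in DAY6 and 2.8 and 4.96 in DAY9, at the end opposite to its start, inside the neighbour Raver2.

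Lost regions lay inside Sox2 and Myc, genes that the cassette also encodes. The region chr3:34650291-34651412 covers much of Sox2, a gene with a single exon, and had a peak in all 8 cassette-bearing libraries, between 3.02 and 5.39, MEF without doxycycline included. The adjacent region over the start of Sox2 was shared (5.58 and 5.62 in DAY9, 6.8 and 5.67 in ESC). The lost region inside Myc, chr15:61987558-61988255, had 2.43 and 2.68 in DAY9, 2.42 and 2.36 in DAY6, 2.07 in DAY3 replicate 2, and no peak in DAY3 replicate 1 or MEF. Klf4 and Pou5f1, the gene of Oct4, are also in the cassette and had no lost region inside the gene. The regions inside Klf4 were shared. Pou5f1 had a shared region and another with 5.8 and 6.15 in DAY9, 2.59 in ESC replicate 1 and no peak in ESC replicate 2. Outside the cassette, the start of Acta2 also had a peak in all 8 other libraries and none in ESC. Fragments of the cassette carry the sequence of the cassette genes, the ESC have no cassette, and its part in the 2 losses was not tested.

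Beyond promoters, the 2 sets lay differently with respect to genes. Of the gained regions, 4.74% lay within 1 kb of a protein-coding gene end (exact 95% binomial interval 4.44% to 5.05%), and of the lost ones 5.32% (5.01% to 5.65%), against 35.3% of shared regions. These intervals cover the counting of regions only, which are not replicates. The median distance to a gene end was 37.6 kb for gained, 25.3 kb for lost and 6.504 kb for shared regions. More than 100 kb from any gene end were 5734 gained regions (30.1%) and 3768 lost ones (19.3%). Gained regions lay between genes more often (58.6%, against 44.5% of lost ones), and lost regions inside gene bodies (50.2%, against 36.7%). The share beyond 100 kb was 23.9% for gained regions without ESC replicate 2 and 30.6% without ESC replicate 1, above the lost share in each case (19.02% and 17.65%).

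**Figure D2:**
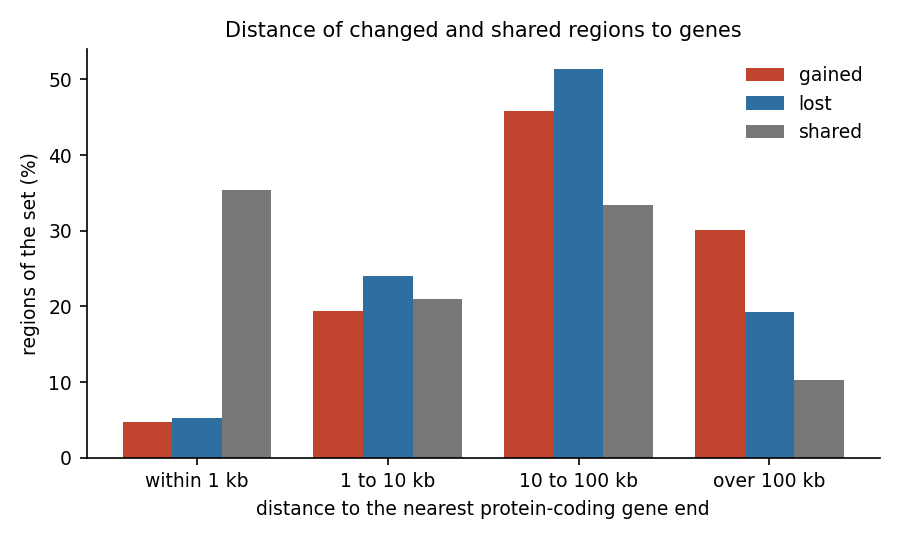
Share of gained, lost and shared regions (y axis, %) by distance to the nearest end of a protein-coding gene (x axis, 4 classes). Shared regions led within 1 kb with 35.3%, and gained regions led beyond 100 kb with 30.1%.

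Gained regions were wider, with a median of 626 bp against 536 bp for lost and 856 bp for shared regions. A region merged from 2 lists is at least as wide as each of its peaks, and the peaks themselves had medians of 498 and 538 bp in gained and 469 and 471 bp in lost regions. Within their own lists both kinds of peak were of middle strength: the median rank percentile, with 100 as the strongest, was 47.6 and 53.9 for gained and 44.2 and 44.1 for lost peaks, against 71.4 to 72.8 for shared ones. Among regions whose 2 peaks both ranked in the top 25%, the 2044 gained ones had a median width of 1006.5 bp and a median distance of 69.3 kb, and the 1862 lost ones 805 bp and 26.2 kb.

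The history of the sets, read from libraries that the definition did not use, differed most. Of the gained regions, 16521 (86.6%) had no peak in any MEF, DAY3 or DAY6 library. Of the lost regions, 14929 (76.3%, interval 75.7% to 76.9%) had at least 1 earlier peak, against 2550 of the gained ones (13.4%, 12.9% to 13.9%) and 93.0% of the shared ones. Of the remaining regions, with another combination of peaks, 33.5% had an earlier peak. In the lost set, 3233 regions (16.5%) had a peak in at least 1 MEF library. That share was 8.54% for gained, 64.3% for shared and 16.3% for the remaining regions. A further 11696 lost regions (59.8%) had a peak in DAY3 or DAY6 and none in MEF. For gained, shared and remaining regions this share was 4.83%, 28.7% and 17.2%. Per library, lost regions had a peak in 14.1% and 10.2% of cases in MEF, 36.8% and 36.7% in DAY3, and 59.9% and 56.7% in DAY6. Gained regions had one in 6.72% and 5.43% in MEF, 1.93% and 1.90% in DAY3, and 4.39% and 3.17% in DAY6. The lost set thus climbed stage by stage to DAY9. The gained set had its highest earlier share in fibroblasts, where 1045 regions (5.48%) were open in MEF and in neither DAY3 nor DAY6. The earlier lists differ in length, with 74444 and 64295 peaks in MEF, 45766 and 45497 in DAY3 and 65145 and 58969 in DAY6. The parts of list length and of feeder cells in the shares by stage were not tested. Without DAY6 replicate 1 the share of gained regions with an earlier peak was 11.3%, and when both libraries of a stage had to have the peak it was 4.74%.

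**Figure D3:**
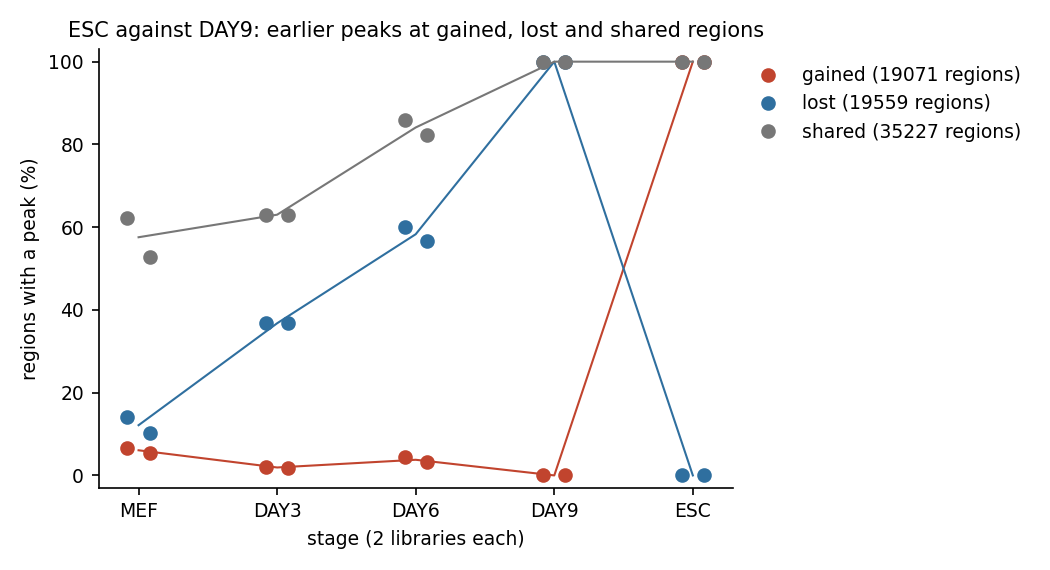
Share of gained, lost and shared regions with a peak (y axis, %) in each of the 10 libraries (points) by stage (x axis), with lines through the stage means; the values at DAY9 and ESC are set by the definition. Lost regions reached 59.9% and 56.7% at DAY6 while gained regions stayed under 7% at every earlier stage.

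Strength and history were related in opposite ways in the 2 sets. Ranked by the weaker of the 2 peaks, lost regions had an earlier peak in 62.8% of cases in the lowest 25% of ranks and in 100% of the 223 in the top 10%, all of which had a DAY6 peak. For gained regions the share was 16.9% in the lowest 25% and 7.26% of the 179 in the top 10%. The ranks come from the libraries of the definition and the history from others. The 5798 lost regions open in both DAY3 and DAY6 and not in MEF were the largest class of losses (29.6%) and the highest ranking, with a median percentile of 54.9.

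**Figure D4:**
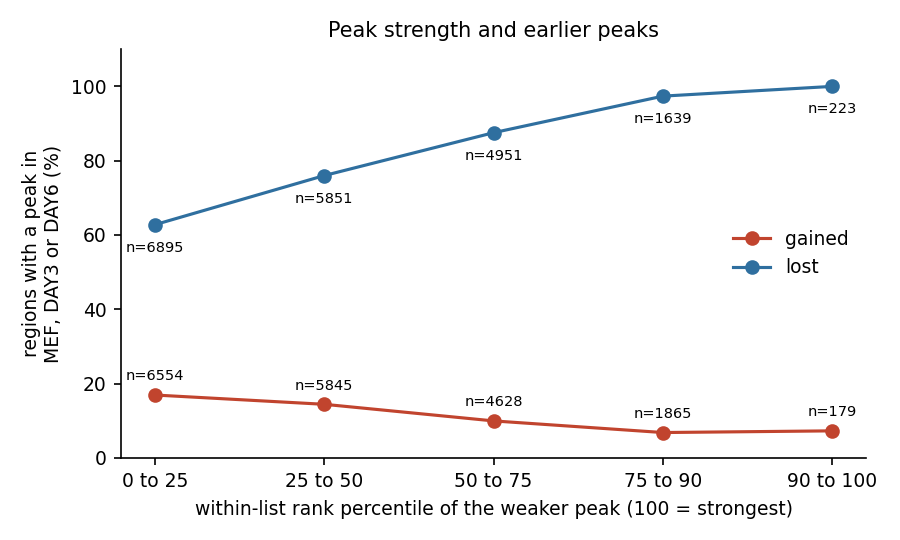
Share of regions with a peak in any MEF, DAY3 or DAY6 library (y axis, %) by the rank percentile of the weaker of the 2 peaks that define the region (x axis, 5 classes, number of regions at each point). The lost set ran from 62.8% to 100% and the gained set from 16.9% to 7.26%.

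Of the best ranked regions, all 6 lost and 3 of 6 gained ones had an earlier peak, against 76.3% of all lost and 13.4% of all gained regions. The 6 best lost regions lay near Picalm, Kcnk13, Thbs1, Syt17, Crhr2 and Dclk2, and each had peaks in all DAY3 and DAY6 libraries. At the first, chr7:90059283-90060271, 69.9 kb from Picalm, the DAY3 folds were 9.38 and 10.5, those of DAY6 15.5 and 16.5, and those of DAY9 16.6 and 16.3, with no peak in MEF or ESC. The region near Syt17 was the one of the 6 with MEF peaks (8.03 and 3.33). At the 6 best gained regions the ESC folds were between 15.3 and 23.3. The first, chr4:26944205-26945149, 597 kb from Manea, had 23.3 and 17.1 and no earlier peak, and the sixth lay 1670 kb from Stim2. Of the other 4, 2 lay in or near Zfp640, where MEF, DAY3 or DAY6 libraries had weak peaks of 2.52 to 4.04, 1 in Rabgap1l, with a peak of 3.0 in MEF replicate 2, and 1 in Gm31714, with none.

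Long genes held the largest numbers of changed regions. Most gained regions, within the gene or 20 kb of it, were counted at Pde4d (23), Cntnap2 (21), Tenm3 (19), Auts2 (15), Plcb4 (15), Ptprd (14) and Tenm4 (14). Gm37013, Gm38666 and Gm38667, overlapping models of 868.1 to 889.2 kb on chromosome 18, had the same 14 regions each by count and are 1 locus. Of these genes, Cntnap2, an adhesion protein of neurons, had 21 gained, 3 lost and 5 shared regions, and Ptprd, a receptor phosphatase of synapses, 14, 4 and 5, while Auts2 had 15 of each kind. Most lost regions were at Cdh13 (22), Camta1 (21), Magi2 (20), Aopep (19), Nav2 (18), Arhgap26 (17), Msi2 (17), Prkce (17) and Rad51b (16). Cdh13, an atypical cadherin, had 22 lost and 3 gained, and Aopep, an aminopeptidase gene of 361.2 kb, 19 lost and 1 gained. Gene length differs among them by several fold, from 356.0 kb for Plcb4 to 2270.5 kb for Ptprd, and these counts are not per length.

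Lost regions formed runs more often than gained ones. Runs of at least 3 neighbours held 2183 lost regions (11.2%) in 640 runs and 1206 gained regions (6.32%) in 358 runs. After the Dppa2 and Dppa4 run, the gained runs with the most regions lay in Cntnap2 (7 regions, chr6:47175544-47225798), near Hpf1 (7, chr8:60838495-60871927), over Pawr (6, chr10:108406687-108436768) and near Trmt9b (6, chr8:36520285-36559586). The lost runs with the most regions lay on repeated gene arrays: 10 and 8 regions over the array of Gm40363 and related models with Rn4.5s genes on chromosome 6 (chr6:47738506-47777289 and chr6:47653594-47684391), and 10 over the 5S ribosomal RNA genes near Rhou (chr8:123569316-123617202). Reads from near-identical copies cannot be placed with certainty, so these 3 runs are uncertain. The next lost runs lay near Pax7 (7 regions, chr4:139837441-139864106) and in Fsip1 (6, chr2:118137189-118168117). All 6 of the Fsip1 regions and 4 of the 7 near Pax7 had an earlier peak, against 76.3% of all lost regions.

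Promoter letters differed between the sets in the AP-1 site. The letters TGANTCA, read on both strands, occurred in 14.2% of the 479 promoters at lost regions, 6.22% of the 563 at gained regions, 4.07% of those at shared regions and 7.81% of all promoters of the same length. They occurred in 10.8% of promoters without a region and in 9.32% of those at regions with another combination of peaks. AP-1 is the Fos and Jun family that is active in fibroblasts. Its part in the lost set was not tested. The Esrrb letters CAAGGTCA were in 11 gained promoters (1.95%), 1 lost promoter (0.209%) and 1.56% of all. The SOX letters ACAATGG were in 4.62% of gained, 7.10% of lost and 3.66% of all, the octamer ATGCAAAT in 1.60%, 2.92% and 1.74%, the KLF letters GGGNGTGG in 19.9%, 22.3% and 17.6%, and the TEAD letters GGAATG in 18.8%, 16.9% and 14.7%. Only promoters could be read, and they overlap a small part of each set.

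Chromosome X had the largest share of gained regions among the chromosomes other than Y, 799 of 4059 (19.7%, against 12.7% over the autosomes), while its share of lost regions was 13.0% against 13.3%. Of the 799, 91.9% had no earlier peak and the median distance to a gene end was 59.4 kb, against 86.6% and 37.6 kb over all gained regions. The excess on X over the autosomes was present with lists of equal length (19.4% against 11.5%) and without any 1 of the 4 libraries, the smallest gap being 34.4% against 29.5% without ESC replicate 2. Chromosomes 11 and 19 had the lowest gained shares, 8.97% and 9.77%. At shared regions the peak heights of ESC relative to DAY9, scaled to 1 over the autosomes, were 0.815 to 0.829 on chromosome 11, 0.753 to 0.797 on chromosome 19 and 0.977 to 0.989 on chromosome X. On chromosome 8, where the lost share was lowest among autosomes (10.4%), they were 1.09 to 1.13. Similar heights stood on chromosomes 1 (1.08 to 1.12) and 3 (1.06 to 1.13), where the lost shares were 12.8% and 13.1%. The heights were low on chromosomes 11 and 19, where the gained share was low, and close to the autosomes on chromosome X; their part in the shares was not tested. On Y, 76 of 285 regions were gained and 21 lost, beside the missing peaks at Y-linked genes described above.

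**Figure D5:**
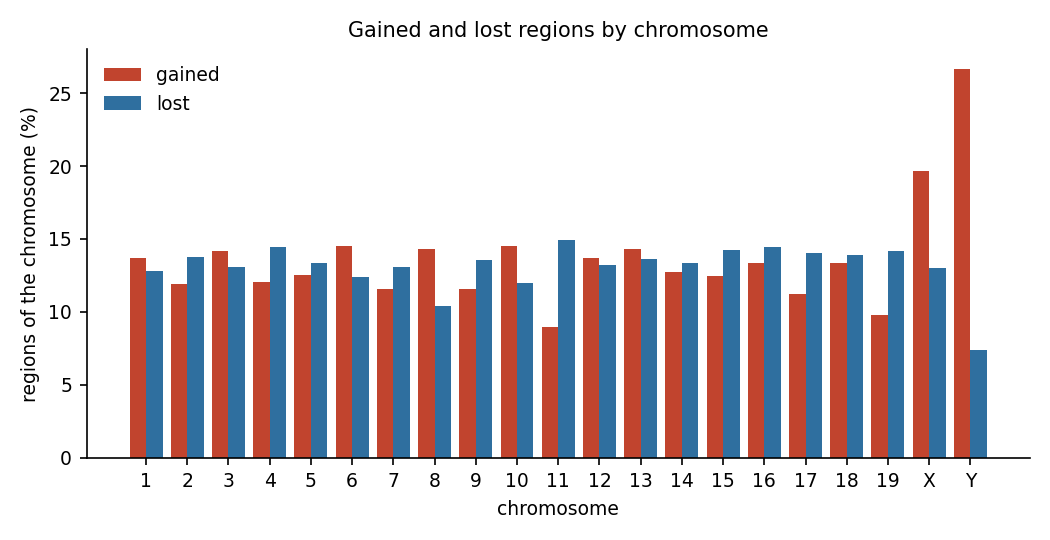
Share of the regions of each chromosome (x axis) that were gained (red) or lost (blue) in ESC against DAY9 (y axis, %). Gained shares were lowest on chromosomes 11 (8.97%) and 19 (9.77%) and higher on X (19.7%) and Y than on any autosome.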

How the data were processed

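Each library came with 1 list of peaks, deposited by the authors without a header. Per the submitters' processing notes, which give no order, Bowtie2 2.3.2, MACS2 2.1.1, deepTools 2.3.6 and the build mm10 were used; filters and duplicate handling are not given in the sources used here. The deposited columns hold a score, a linear fold ratio over local background, a −log10 p-value and a −log10 q-value. The deposited score is 10 times the −log10 p-value rounded down, and the −log10 p-value itself was used to rank peaks within a list. No summits are given. Peaks were listed per library and not on pooled samples.

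Peaks of the 4 libraries were merged at 1 bp overlap, and a library had a region where a peak overlapped it by at least 1 bp. The pileup behind a peak was recovered from its deposited fold and −log10 p-value, for values up to 300 and with a tolerance of 0.01, in nearly all peaks of every list. The noise ratio is the squared difference between 2 libraries over its counting expectation, at pileups of 100 to 200. Genes came from the RefSeq table of GRCm38.p6, which gives no strand. Nearness to a gene start, as planned, was therefore measured at either end of protein-coding genes, and starts from the RefSeq promoter table, which covers 17492 of 21887 genes, were used where named. The counting was checked on simulated lists. Python 3.11.15, numpy 2.4.6, pandas 2.3.3 and scipy 1.17.1 were used.

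Members and the 24 gene lists (245 genes) were chosen with earlier results of these data known. Named are list genes with a gained or lost region within 1 kb of a gene end, the 10 genes with most gained and with most lost regions, the nearest genes of the 6 best ranked regions and the genes of the 5 runs with the most regions in each set. Other list genes, the Y-linked genes, the promoters and the miRNAs were named after their values were seen. No test was run on the presence of peaks, since an exact permutation test of 2 libraries against 2 cannot go below p = 0.333. Alternatives were the top 50% of each list, lists of equal length, 50% coverage of a region, 500 bp around the peak centre, other gene distances, and leaving out each library. Cutting to the shortest of all 10 lists, gene starts, and leaving out DAY6 replicate 1 or chromosomes X and Y were alternatives chosen after seeing the data. The values of 1 list gene are not reported here by name.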

Additional observations from a re-analysis of the deposited data

How the results depend on the processing

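The 19071 gained and 19559 lost regions were 10633 and 11013 with the top 50% of each list, and 10168 and 13703 with all lists cut to the 45497 peaks of the shortest. With the 4 lists cut to 77787 peaks they were 15983 and 21260. Leaving out 1 library in turn gave 21392 to 40515 gained and 24553 to 27271 lost regions, and the gained count roughly doubled without either ESC library (40515 without replicate 1, 37672 without replicate 2), since 1 library then sufficed. Near a gene end lay 4.74% of gained and 5.32% of lost regions; these shares were 6.57% and 8.57% with the top 50%, 5.48% and 6.15% at 50% coverage, 8.71% and 10.7% within 2.5 kb, 10.1% and 10.5% with all genes, and 2.55% and 2.54% at gene starts, the setting at which the order of the sets turned. They were 5.76% and 8.41% with the shortest of the 10 lists, and the lost share was 5.67% with the 4 lists cut. Without 1 library they ranged from 4.80% to 5.38% for gained and 5.26% to 6.26% for lost regions. The 13.4% of gained regions with an earlier peak became 10.1% with the top 50%, 15.6% with equal list lengths, 11.0% at 50% coverage, 4.74% with both libraries of a stage, 11.3% without DAY6 replicate 1, and 12.8% to 17.8% without 1 library. The 16.5% of lost regions with a fibroblast peak became 13.0% with the top 50%, 14.2% at 50% coverage, 7.75% with both MEF libraries and 16.4% to 21.1% without 1 library. Of the 245 list genes, 126 had a gained region within 20 kb, 95 within 5 kb, 158 within 50 kb, 77 with the shortest list, and 132 to 190 without 1 library. The 9 germ cell genes with a gained end were 6 with the top 50% or the shortest list, 11 at 50% coverage, and 9 or 10 without 1 library. The 500 bp windows and leaving out chromosomes X and Y kept the counts and shares near the values reported. No paired analysis was possible because the counts come from no test and the replicate numbers only name libraries. Depth differs between ESC and DAY9 and is known only as a background pileup, so a lost region may have held signal under the limit of the ESC lists.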

Other observations

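Changed regions also lay near microRNA genes. Of 1005 microRNA hairpins, 71 had a gained, 133 a lost and 367 a shared region within 5 kb. Of 21887 protein-coding genes, 5476 had a gained and 6744 a lost region in the gene or within 5 kb of it. The hairpins with a gained region included the cluster of Mir106a, Mir18b, Mir20b, Mir19b-2, Mir92-2 and Mir363 on chromosome X. They also included the cluster of Mir106b, Mir93 and Mir25 on chromosome 5. Both are relatives of the miR-17 family that is abundant in stem cells. The region beside the X cluster, chrX:52745401-52745971, had a fold of 5.3 and 6.54 in ESC, and the one beside the chromosome 5 cluster, chr5:138163033-138163774, had 6.52 and 4.49. Neither had a peak in any of the other 8 libraries. Each hairpin of both clusters also had a shared region within 5 kb. The mature forms of 4 members, from RefSeq on GRCm38.p6, share the seed at bases 2 to 8, in capitals.
mmu-miR-106a-5p: cAAAGUGCuaacagugcagguag
mmu-miR-20b-5p: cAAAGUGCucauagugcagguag
mmu-miR-93-5p: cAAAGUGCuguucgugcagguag
mmu-miR-106b-5p: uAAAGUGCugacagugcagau

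A gained region 417 bp from Mir141 and 825 bp from Mir200c, epithelial microRNAs, was weak, with 2.73 and 3.39. Among lost regions, the one 4365 bp from Mir205, a microRNA of stratified epithelium, had 3.3 and 3.43 in DAY3, 4.83 and 2.92 in DAY6 and 3.89 and 3.69 in DAY9. The one 4207 bp from Mir34a, a target of p53, had 3.37 and 3.87 in DAY6 and 3.38 and 3.32 in DAY9.

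Imprinted genes had a change in each direction at a gene end. The gained region at the start of Mest, expressed from the paternal copy, had 4.02 and 5.11 in ESC and no peak elsewhere. The lost region beside the start of Dlk1 had 4.53 in MEF replicate 1, 3.37 and 4.47 in DAY6 and 3.6 and 3.82 in DAY9. Of the trophoblast genes, Tfap2c and Hand1 had weak gained regions near one end, with 4.58 and 2.94 and with 2.96 and 2.82.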
